A study of Mus musculus with 4 samples.

Results

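Ribosome biogenesis genes were compared between blastocysts edited in Ywhaz and control blastocysts, by sequencing of poly(A) RNA. The members are the genes that the deposited table assigns to the KEGG pathway "Ribosome biogenesis in eukaryotes", without its spliceosome gene Snu13 and without symbols that begin with Xpo, Ran, Nxf or Eif. The pathway had 77 rows, 8 of them were left out, and 69 members remained of 22013 genes in the table. The knockout group (C57BL/6, Ywhaz knockout) came from zygotes given CRISPR-Cas9 against Ywhaz, and the control group (C57BL/6, wild type) is described in the labels variously as injected with Cas9 protein only, as given a control guide RNA and as untreated. There were 2 libraries a group, each made from 5 pooled embryos that were grown in culture after superovulation and mating within the strain. The knockout libraries carry names beginning with si although editing is described, and all libraries share 1 batch label. Editing at the zygote can leave edited and unedited cells in 1 embryo or pool, and the age of the embryos is given only as the blastocyst stage. The members were chosen with the knockout and control values of these same libraries known, so every difference between the groups is given here as a description and supports nothing by itself.

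Ribosomes are assembled in the nucleolus from a long precursor RNA made by RNA polymerase I. Small nucleolar ribonucleoproteins (snoRNPs) of the box C/D kind methylate the ribose of this precursor and those of the box H/ACA kind convert uridine to pseudouridine, while a large complex, the small subunit (SSU) processome, folds and cuts it. GTPases, helicases and ATPases then mature and export both subunits. The preimplantation embryo starts to make ribosomes when its own genome is switched on, and nucleoli become active during the cleavage divisions.

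Levels are FPKM as the authors deposited them, that is, fragments scaled to transcript length and to library size. Spacing of the lowest values placed the depth at an estimated 17300000 to 18400000 fragments per library, at which a transcript of 2 kb at 1 FPKM holds 34.6 to 36.9 fragments, and 15212 to 15490 genes were above 0. Ywhaz itself stood at 32.7 and 98.2 FPKM in knockout libraries 1 and 2, against 143 and 123 FPKM in control libraries 1 and 2, so both knockout pools were below both controls but far from each other. The difference on the log2(FPKM + 1) scale was −1.21 ± 0.39 (SE), with a limma adjusted p of 0.305, above the threshold of 0.05. Summed markers of trophectoderm were 225 and 349 FPKM in knockout libraries and 236 and 186 FPKM in control libraries, those of epiblast were 319 and 350 FPKM against 223 and 231 FPKM, and those of primitive endoderm were 34.4 and 37.4 FPKM against 42.8 and 37.3 FPKM. That last sum is mostly Gata6, while Gata4 had 0.420 and 0.573 FPKM in knockout libraries, against 1.14 and 1.24 FPKM in control libraries, and Sox17 had 0.521 and 0.523 FPKM in knockout libraries, against 1.13 and 2.03 FPKM in control libraries. All 15 lineage markers were above 0 in every library. The 6 cumulus and granulosa markers summed to 0.425 and 0.085 FPKM in knockout and to 0.386 and 0.229 FPKM in control libraries, with Has2 at 0 throughout. Oocyte markers summed to 12.2 and 8.33 FPKM in knockout libraries, against 7.97 and 11.0 FPKM in control libraries, most of it Zp3, and erythroid markers to 11.2 and 3.21 FPKM against 5.89 and 6.88 FPKM, most of it Hba-a1. Fibroblast markers summed to at most 0.562 FPKM in any library. The summed epiblast markers were thus higher in both knockout pools, through Pou5f1, Nanog and Zfp42, while Sox2 and Klf4 overlapped between the groups. Of the trophectoderm markers, Krt18 and Tfap2c were also above both controls in both knockout pools, and Cdx2, Krt8, Gata3 and Eomes overlapped. The part of these markers in the gene differences described next was not tested. In pools of whole embryos, fewer cells of a type and less RNA per cell cannot be told apart.

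Of the 69 members, 67 averaged 1 FPKM or more across all libraries and were tested. The remaining pair, the fibrillarin-like gene Fbll1 and the Ran-like copy 1700009N14Rik, lay between 0 and 0.041 FPKM in every library. Of the tested members, 53 had a positive and 14 a negative log2 fold change of knockout minus control, on the log2(FPKM + 1) scale used throughout. Positive values made up 56.0% of all 9544 genes tested. The median log2 fold change was 0.19 over the members and 0.05 over all genes tested, and the members ranged from −0.43 for Imp3 to 1.01 for Gnl2. Both knockout libraries lay above both control libraries in 32 members, against 27.4% of all genes tested, and below them in 5 members, against 14.0% of all genes tested. No member passed an adjusted p of 0.05 in limma, where 0.0733% of all genes tested passed, and the smallest adjusted p among members was 0.211. At an unadjusted limma p under 0.05, 11 members were higher in knockout, against 7.75% of all genes tested, and 1 was lower, against 3.33% of all genes tested. Those 11 became fewer when either control library was left out, as did the number over all genes tested. With 1 library left out, the members' median log2 fold change ran from 0.15 to 0.25, and that of all genes tested from −0.01 to 0.13. Leaving out 1 library moved the log2 fold change of 24 of the 37 members named in detail by over 1.5 times. At 2 libraries a group, the smallest p that exact permutation can give is 0.333. The labels do not state separate matings for the pools, so the spread among pools may be technical. Each SE combines a gene's own spread among pools with a spread borrowed from all genes tested.

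**Figure D1:**
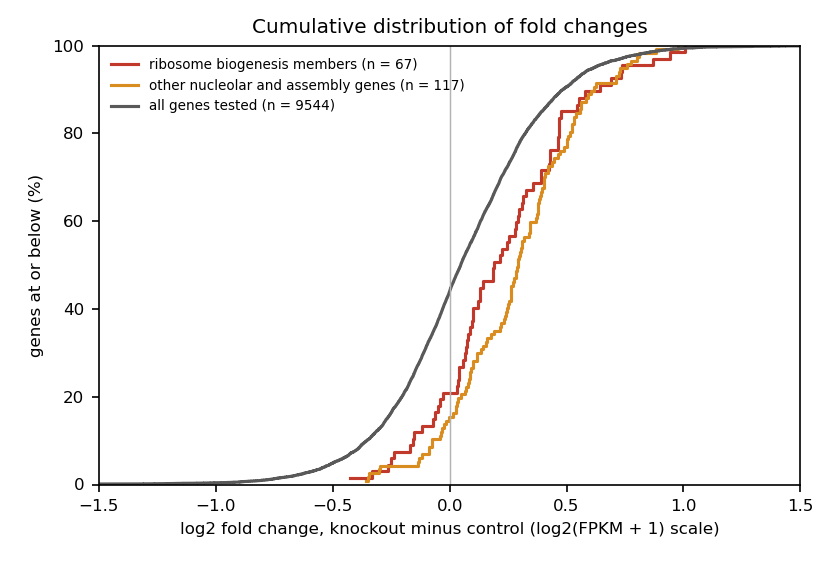
Cumulative share of genes (%, vertical axis) at or below each log2 fold change of knockout minus control (horizontal axis, log2(FPKM + 1) scale) for 67 members, 117 other nucleolar and ribosome assembly genes (6 of them MYC network genes) and all 9544 genes tested. The member curve lies to the right of the curve of all genes, with medians of 0.19 and 0.05.

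In the authors' deposited table, 1 member had an FDR under 0.05. It was Gnl2, at a log2 fold change of 1.10 with FDR 0.0200. That table's FDR was under 0.05 for 0.524% of the genes tested here.

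The median member was higher in each knockout pool than in each control pool. After each gene was centred on its mean over the 4 libraries, the median member stood at 0.07 and 0.17 in knockout libraries 1 and 2, against −0.05 and −0.12 in control libraries 1 and 2. The median of all genes tested was −0.03 and 0.11 in knockout libraries 1 and 2, against 0.03 and −0.10 in control libraries 1 and 2, so the whole table also moved between pools of one group. Relative to that shift, the median member was 0.10 and 0.06 higher in knockout libraries, and −0.08 and −0.02 in control libraries. Knockout library 2 held the highest value of 36 members and control library 2 the lowest value of 31. The median member differed by 0.17 (absolute log2 difference) between the knockout pools and by 0.19 between the control pools, and its absolute fold change between groups was 0.25, whereas all genes tested had 0.28, 0.22 and 0.21.

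**Figure D2:**
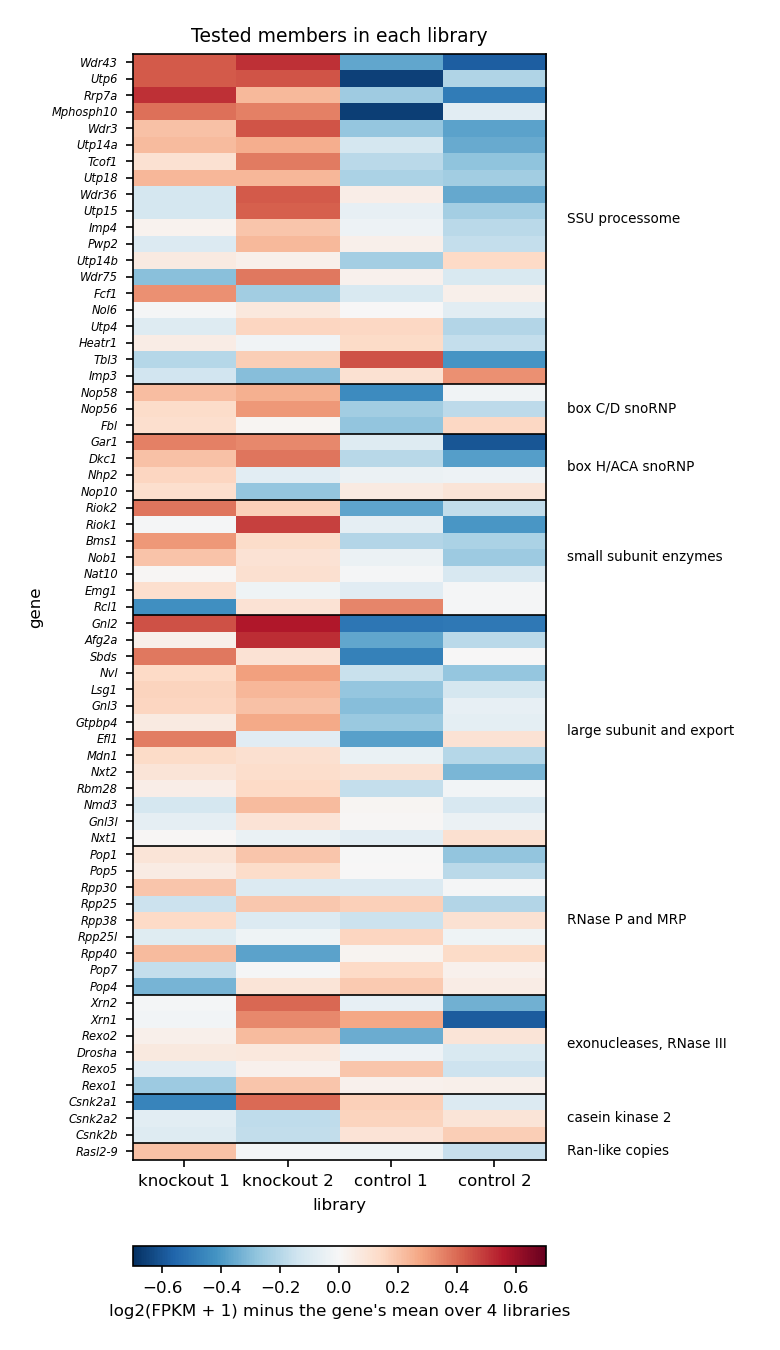
Each of the 67 tested members (rows, grouped by role) in knockout libraries 1 and 2 and control libraries 1 and 2 (columns), coloured by its log2(FPKM + 1) value minus its mean over the 4 libraries. Knockout library 2 holds the highest value of 36 members, and Imp3 and the casein kinase genes Csnk2b and Csnk2a2 run opposite to most rows.

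Promoters of the members are shown because MYC with its partner MAX binds the E-box CACGTG and is known to drive genes of this pathway. RefSeq promoters on GRCm38.p6, from 250 bases before to 50 bases after a start site, were matched by symbol for 57 members, and 12 of these (21.1%) held CACGTG, which reads the same on both strands. The motif stood in 12.1% of promoters of all genes tested and in 8.09% of all genes in the promoter table. The following 5 promoters come from the 37 members named in detail. They are those with the motif and the smallest limma p, and capitals mark the E-box. Utp18 and Imp4 also held the motif with a smaller p than Mdn1, but are not among those 37.
Wdr43: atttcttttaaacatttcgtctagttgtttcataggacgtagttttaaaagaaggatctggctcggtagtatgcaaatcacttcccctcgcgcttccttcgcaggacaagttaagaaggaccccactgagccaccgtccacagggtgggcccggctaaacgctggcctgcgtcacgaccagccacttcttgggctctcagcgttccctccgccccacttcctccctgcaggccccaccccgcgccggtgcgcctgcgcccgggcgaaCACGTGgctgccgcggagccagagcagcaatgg
Rrp7a: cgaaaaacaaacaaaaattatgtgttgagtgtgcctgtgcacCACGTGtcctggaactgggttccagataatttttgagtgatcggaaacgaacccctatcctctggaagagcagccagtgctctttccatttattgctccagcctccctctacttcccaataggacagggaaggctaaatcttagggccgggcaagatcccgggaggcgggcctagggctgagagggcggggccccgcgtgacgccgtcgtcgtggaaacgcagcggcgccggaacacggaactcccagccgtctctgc
Xrn2: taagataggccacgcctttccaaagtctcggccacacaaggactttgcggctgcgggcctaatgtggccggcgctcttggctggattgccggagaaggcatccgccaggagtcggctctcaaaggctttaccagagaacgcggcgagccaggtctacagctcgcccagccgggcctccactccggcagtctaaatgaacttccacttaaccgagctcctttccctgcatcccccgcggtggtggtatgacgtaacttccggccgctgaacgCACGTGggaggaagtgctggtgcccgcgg
Rexo2: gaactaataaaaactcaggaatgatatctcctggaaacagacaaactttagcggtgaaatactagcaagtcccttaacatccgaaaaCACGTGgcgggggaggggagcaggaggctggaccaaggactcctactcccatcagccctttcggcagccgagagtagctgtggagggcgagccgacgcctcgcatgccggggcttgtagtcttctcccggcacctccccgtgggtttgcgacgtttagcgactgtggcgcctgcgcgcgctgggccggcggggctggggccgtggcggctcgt
Mdn1: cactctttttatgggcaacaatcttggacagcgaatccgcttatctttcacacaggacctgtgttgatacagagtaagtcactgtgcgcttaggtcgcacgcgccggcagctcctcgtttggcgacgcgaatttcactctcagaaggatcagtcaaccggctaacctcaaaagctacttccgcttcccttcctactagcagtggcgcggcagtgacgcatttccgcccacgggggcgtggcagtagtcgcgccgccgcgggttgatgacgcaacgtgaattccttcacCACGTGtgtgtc
Wdr43 was read from chr17:71615965-71616264 on the plus strand, Rrp7a from chr15:83122752-83123051 on the minus strand, and Xrn2 from chr2:147012749-147013048 on the plus strand. Rexo2 was read from chr9:48480562-48480861 on the minus strand and Mdn1 from chr4:32656869-32657168 on the plus strand. The E-box began 17, 21 and 38 bases after the start site in Wdr43, Xrn2 and Mdn1, and lay upstream at −208 and −163 in Rrp7a and Rexo2. All 12 members with the motif had a positive log2 fold change, with a median of 0.23, against 30 of 43 tested members without it, with a median of 0.14. With 1 library left out, 10 or 11 of the 12 were positive, and Nmd3 and Utp4 were negative without knockout library 2. The difference between members with and without the motif was not tested. Among all genes tested, with or without the motif, 56.0% were positive, and the share among all those with the motif was not determined. A second motif, the ETS-type CCGGAAG sought on both strands, was in 20 of the 57 matched members (35.1%), in 22.9% of promoters of all genes tested, and in 3 of the 12 promoters with an E-box, without overlapping it. Tested members with CCGGAAG had a median log2 fold change of 0.18, and those without it 0.19. A match describes letters in this window and does not show that a factor binds there.

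The SSU processome genes included members with clear differences and several that hardly differed. Of 20 tested members 18 had a positive log2 fold change, with a median of 0.26, and both knockout libraries lay above both controls in 9 and below them in 1. Over all genes tested, 56.0% were positive, 27.4% lay above both controls and 14.0% below them. Wdr43, a UtpA subunit that binds the start of the precursor, had 25.0 and 26.6 FPKM in knockout libraries 1 and 2, against 14.0 and 11.9 FPKM in control libraries 1 and 2 (log2 fold change 0.94 ± 0.22 SE). Utp6, a UtpB subunit, had 16.1 and 16.2 FPKM in knockout libraries, against 7.05 and 9.94 FPKM in control libraries (0.87 ± 0.24 SE). In both genes the knockout pools nearly coincided and the groups stood clear of each other. Mphosph10, which joins Imp3 and Imp4 in a small complex on the U3 snoRNA, had 21.2 and 20.7 FPKM in knockout libraries, against 9.76 and 15.2 FPKM in control libraries (0.73 ± 0.25 SE). Rrp7a, a factor of the UtpC complex, had 8.49 and 6.82 FPKM in knockout libraries, against 4.62 and 3.75 FPKM in control libraries (0.74 ± 0.25 SE). Groups did not overlap in either gene, although the control pools of Mphosph10 lay far apart, and its log2 fold change was 0.44 without control library 1. Wdr43 and Rrp7a are 2 of the genes whose promoters are printed.

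Other SSU processome members followed with smaller differences. Wdr3, a UtpB subunit, averaged 9.66 ± 1.24 FPKM in knockout and 5.81 ± 0.34 FPKM in control libraries (SD, n = 2 each). Utp18 averaged 18.6 ± 0.0361 FPKM in knockout and 13.2 ± 0.136 FPKM in control libraries, and Utp14a, which activates the helicase that frees the U3 snoRNA, averaged 13.1 ± 0.192 FPKM in knockout and 9.20 ± 1.17 FPKM in control libraries. Tcof1, which encodes treacle, a nucleolar scaffold tied to RNA polymerase I, averaged 4.54 ± 0.704 FPKM in knockout and 2.99 ± 0.177 FPKM in control libraries. Imp4 was also higher in both knockout pools, at 57.3 and 64.5 FPKM against 54.9 and 49.2 FPKM in control pools. All 5 of these genes had groups that did not overlap.

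Knockout and control pools overlapped in the remaining SSU processome members apart from Imp3. Heatr1, a large UtpA scaffold, had 12.5 and 11.8 FPKM in knockout libraries, against 13.3 and 10.6 FPKM in control libraries (0.03 ± 0.23 SE). The UtpA subunits Utp4, Utp15 and Wdr75, the UtpB subunits Pwp2, Tbl3 and Wdr36, the UtpC-linked Nol6, the nuclease-like Fcf1 and the retrogene Utp14b had log2 fold changes from −0.03 for Tbl3 to 0.31 for Wdr36. Subunits of one complex therefore stood apart: Wdr43 at 0.94 and Heatr1 at 0.03 are both in UtpA, and Utp6 at 0.87 and Tbl3 at −0.03 are both in UtpB. Those differences between subunits were not tested. Imp3 ran the other way, with 85.8 and 76.4 FPKM in knockout libraries, against 101 and 118 FPKM in control libraries (−0.43 ± 0.19 SE), although its partner Mphosph10 stood at 0.73. The median of the SSU processome genes was 0.43 without knockout library 1, 0.12 without knockout library 2, 0.39 without control library 1 and 0.17 without control library 2, so its size depended on single pools.

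**Figure D3:**
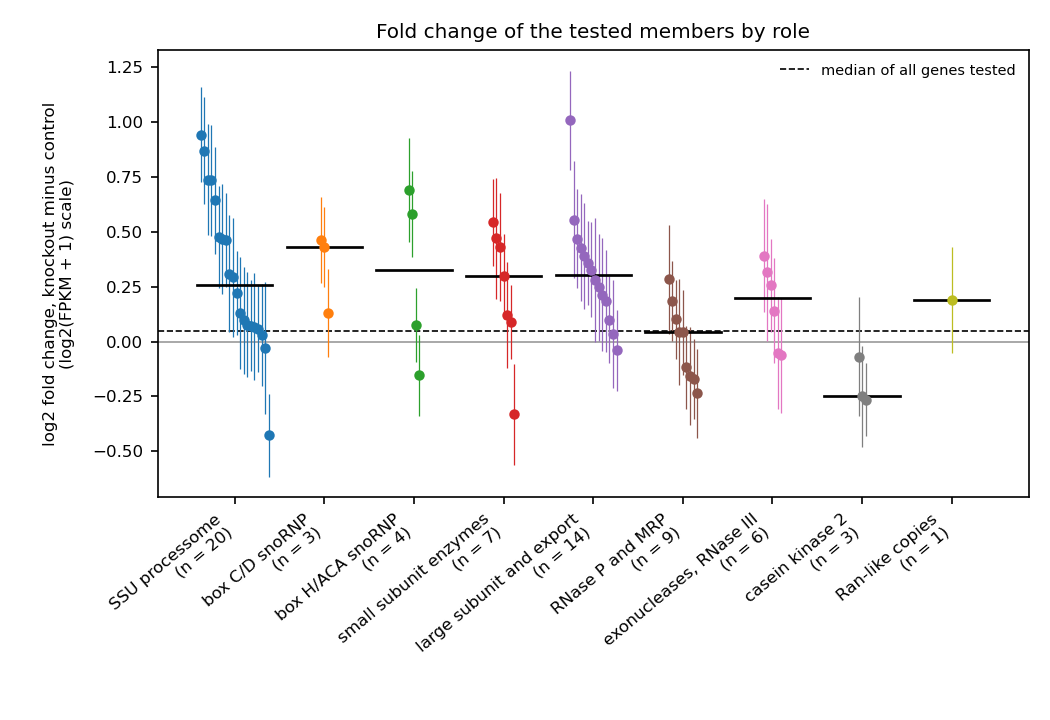
Log2 fold change of knockout minus control (vertical axis, log2(FPKM + 1) scale) of each tested member, with its standard error, grouped by role, with black bars for the median of each role and a dashed line for the median of all genes tested, 0.05. Medians run from −0.25 in casein kinase 2 to 0.43 in the 3 box C/D snoRNP proteins (0.26 without control library 1), and RNase P and MRP subunits sit at 0.04.

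Within both kinds of snoRNP, some core proteins had separate groups and others overlapped, and those differences between proteins were not tested. In the box C/D snoRNP, Nop56 had 103 and 117 FPKM in knockout libraries, against 79.4 and 82.8 FPKM in control libraries (0.43 ± 0.18 SE). Nop58, which pairs with Nop56 on the guide RNA, had 133 and 136 FPKM in knockout libraries, against 84.0 and 112 FPKM in control libraries (0.46 ± 0.20 SE). Both genes were higher in both knockout pools, and Nop58 stood at a log2 fold change of 0.26 without control library 1. The methyltransferase Fbl, fibrillarin, had 119 and 111 FPKM in knockout libraries, against 90.7 and 122 FPKM in control libraries, and its groups overlapped (0.13 ± 0.20 SE). Its log2 fold change was −0.08 without control library 1 and 0.34 without control library 2. Levels per length of these 3 proteins were close to each other in control pools, at means of 81.1, 98.1 and 106 FPKM for Nop56, Nop58 and Fbl.

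In the box H/ACA snoRNP, Dkc1 and Gar1 were higher in both knockout pools, whereas Nhp2 and Nop10 overlapped between the groups. Dkc1, dyskerin, the pseudouridine synthase, had 56.6 and 63.6 FPKM in knockout libraries, against 42.7 and 37.1 FPKM in control libraries (0.58 ± 0.20 SE). Gar1, which binds dyskerin, had 25.5 and 25.2 FPKM in knockout libraries, against 18.5 and 12.7 FPKM in control libraries (0.69 ± 0.24 SE). The knockout pools of Gar1 nearly coincided, while its control pools lay apart, and its log2 fold change was 0.44 without control library 2. Nhp2 and Nop10, small structural subunits, had higher levels per length. Nhp2 had 1152 and 987 FPKM in knockout libraries, against 1009 and 1015 FPKM in control libraries (0.08 ± 0.17 SE). Nop10 had 599 and 458 FPKM in knockout libraries, against 578 and 588 FPKM in control libraries (−0.15 ± 0.18 SE). Both signs depended on single pools, with Nhp2 at −0.04 without knockout library 1 and Nop10 at 0.04 without knockout library 2. Control pools thus held Nhp2 and Nop10 at means of 1012 and 583 FPKM beside 39.9 FPKM of Dkc1 and 15.6 FPKM of Gar1.

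Enzymes and late factors of the small subunit were higher on the median, at 0.30, with 6 of 7 positive and both knockout libraries above both controls in 5. Among all genes tested these shares were 56.0% and 27.4%. Riok2, an atypical kinase of late small subunit precursors, had 65.3 and 56.3 FPKM in knockout libraries, against 38.5 and 44.3 FPKM in control libraries (0.54 ± 0.20 SE). Its relative Riok1 had 4.00 and 5.99 FPKM in knockout libraries, against 3.81 and 2.78 FPKM in control libraries (0.47 ± 0.28 SE). Riok2 groups stood clear of each other, whereas knockout library 1 was close to control library 1 for Riok1, whose log2 fold change was 0.23 without knockout library 2 and 0.30 without control library 2. The GTPase gene Bms1 averaged 3.55 ± 0.383 FPKM in knockout and 2.37 ± 0.029 FPKM in control libraries, and Nob1, the endonuclease of the last cut, averaged 55.7 ± 2.76 FPKM in knockout and 45.2 ± 4.75 FPKM in control libraries (SD, n = 2 each). Nat10, an RNA acetyltransferase, was low, at 2.36 and 2.61 FPKM in knockout libraries against 2.33 and 2.09 FPKM in control libraries. Emg1, a pseudouridine methyltransferase, overlapped between groups near a mean of 302 FPKM in knockout and 284 FPKM in control libraries. Rcl1, which acts with Bms1, had 51.9 and 75.4 FPKM in knockout libraries, against 89.3 and 69.9 FPKM in control libraries (−0.33 ± 0.23 SE), and its groups overlapped.

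Large subunit and export factors had the member with the largest fold change. Gnl2, a nucleolar GTPase of large subunit precursors on chromosome 4 from 125016585 to 125055380 (GRCm38, plus strand), had 15.9 and 17.3 FPKM in knockout libraries, against 7.73 and 7.76 FPKM in control libraries (1.01 ± 0.23 SE, limma adjusted p = 0.211). Both pools of each group lay close together and the knockout mean reached 214% of control. Of 14 tested members of this role, 13 had a positive log2 fold change, with a median of 0.30, and both knockout libraries lay above both controls in 9 and below them in none. Among all genes tested, 56.0% were positive, 27.4% lay above both controls and 14.0% below them. Sbds, which with Efl1 releases Eif6 from the large subunit, had 54.1 and 44.7 FPKM in knockout libraries, against 29.8 and 41.7 FPKM in control libraries (0.47 ± 0.23 SE). Afg2a, an AAA ATPase that recycles early factors, had 3.15 and 4.78 FPKM in knockout libraries, against 2.14 and 2.54 FPKM in control libraries (0.56 ± 0.27 SE). Both were higher in both knockout pools, with a narrow gap for Sbds, whose log2 fold change was 0.23 without control library 1 and 0.71 without control library 2. Afg2a stood at 0.32 without knockout library 2. Gnl3, nucleostemin, a nucleolar GTPase of stem cells, had 71.2 and 73.9 FPKM in knockout libraries, against 51.9 and 61.4 FPKM in control libraries (0.36 ± 0.19 SE). Mdn1, a giant AAA ATPase whose promoter is among those printed, had 3.50 and 3.43 FPKM in knockout libraries, against 2.96 and 2.58 FPKM in control libraries (0.25 ± 0.24 SE). Groups did not overlap in these genes, nor in the ATPase gene Nvl, the GTPase genes Lsg1 and Gtpbp4 and the RNA-binding Rbm28, whose log2 fold changes ran from 0.18 for Rbm28 to 0.43 for Nvl.

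Other members of this role overlapped between the groups. Nmd3, the adaptor that carries the large subunit out of the nucleus, had 71.5 and 91.1 FPKM in knockout libraries, against 78.7 and 72.0 FPKM in control libraries (0.10 ± 0.20 SE). Efl1, the GTPase partner of Sbds, had 5.21 and 3.60 FPKM in knockout libraries, against 2.72 and 4.20 FPKM in control libraries. Pools of 1 group differed as much as the groups did in these 2 genes. Gnl3l, a relative of Gnl3, had a log2 fold change of 0.03 beside 0.36 for Gnl3. The mRNA export cofactors Nxt1 and Nxt2, which the pathway also lists, had log2 fold changes of −0.04 and 0.21. Eif6, left out by the symbol rule, had 119 and 114 FPKM in knockout libraries, against 75.1 and 80.3 FPKM in control libraries. Xpo1, also left out, had 20.6 and 26.3 FPKM in knockout libraries, against 19.6 and 16.3 FPKM in control libraries. Ran lay the other way, with 612 and 767 FPKM in knockout libraries, against 815 and 808 FPKM in control libraries. Among the rest left out, Snu13 and Nxf1 overlapped between the groups, and Nxf2, Nxf3 and Nxf7 reached at most 1.28 FPKM.

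Subunits of RNase P and RNase MRP, related RNA-protein enzymes that cut precursor tRNA and precursor rRNA, had no common direction. Of 9 tested members 5 had a positive and 4 a negative log2 fold change, with a median of 0.04, and both knockout libraries lay above both controls in 2 and below them in 2. For all genes tested the shares were 56.0% positive, 27.4% above both controls and 14.0% below them. The median was −0.04 with median-of-ratios scaling and −0.05 with quantile normalization, and it ran from −0.10 to 0.14 when single libraries were left out. Pop1, the largest protein subunit, was low, at 2.58 and 2.85 FPKM in knockout libraries against 2.35 and 1.77 FPKM in control libraries (0.28 ± 0.25 SE). Pop4 had 65.3 and 87.5 FPKM in knockout libraries, against 93.5 and 85.2 FPKM in control libraries (−0.24 ± 0.20 SE). Pop4 overlapped because of knockout library 2, while Pop1 groups did not overlap. Pop5 was above the controls, at 93.4 and 98.2 FPKM in knockout libraries against 90.0 and 78.6 FPKM in control libraries. Pop7 was below them, at 75.5 and 84.4 FPKM in knockout libraries against 93.5 and 86.6 FPKM in control libraries. Rpp25l was also below by a narrow gap (−0.12 ± 0.19 SE), and Rpp25, Rpp30, Rpp38 and Rpp40 overlapped, with log2 fold changes from −0.16 for Rpp40 to 0.10 for Rpp30.

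The exonucleases and RNase III had a median of 0.20 over 6 members, beside 0.19 over all members, and 4 were positive, against 56.0% of all genes tested. Both knockout libraries lay above both controls in 2 and below them in none, against 27.4% and 14.0% of all genes tested. Xrn2, the nuclear exonuclease that trims precursor ends, had 8.62 and 11.8 FPKM in knockout libraries, against 8.35 and 6.69 FPKM in control libraries (0.39 ± 0.26 SE). Its groups did not overlap, but knockout library 1 and control library 1 were nearly equal. Rexo2, an oligoribonuclease, had 58.5 and 66.7 FPKM in knockout libraries, against 44.7 and 60.8 FPKM in control libraries (0.26 ± 0.21 SE), and overlapped. Drosha, the RNase III of microRNA precursors, had 2.47 and 2.48 FPKM in knockout libraries, against 2.23 and 2.08 FPKM in control libraries. Xrn1, the cytoplasmic exonuclease, ranged from 1.82 to 2.60 FPKM in knockout and from 0.906 to 2.44 FPKM in control libraries, so it could not be separated, nor could Rexo1 and Rexo5 with log2 fold changes of −0.06 and −0.05. Without control library 2 the median of these 6 genes was 0.02.

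Casein kinase 2, a kinase that joins the UtpC complex and has many other substrates, had 3 members and 3 negative log2 fold changes, with a median of −0.25. Csnk2b, its regulatory subunit, had 396 and 374 FPKM in knockout libraries, against 450 and 475 FPKM in control libraries (−0.27 ± 0.17 SE). Csnk2a2, a catalytic subunit, had 9.27 and 8.58 FPKM in knockout libraries, against 11.1 and 10.5 FPKM in control libraries (−0.25 ± 0.23 SE). Both knockout pools were below both controls in these 2 genes, as in 14.0% of all genes tested. Csnk2a1, the other catalytic subunit, had 45.2 and 82.7 FPKM in knockout libraries, against 70.6 and 58.5 FPKM in control libraries (−0.07 ± 0.27 SE), and the knockout pools bracketed the controls. Its log2 fold change was 0.36 without knockout library 1 and 0.06 without control library 1. Rasl2-9, a Ran-like gene that the symbol rule did not remove, had 2.25 and 1.79 FPKM in knockout libraries, against 1.76 and 1.52 FPKM in control libraries. Its value, like that of the retrogene Utp14b, is uncertain where reads could be divided with a close copy.

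Members spanned a wide range of levels, from a mean of 1.36 FPKM for Utp14b to 1041 FPKM for Nhp2, and the fold changes varied with level. Across the 67 tested members the fold change (log2) correlated with the log2 mean level at Pearson r = −0.33 and Spearman rho = −0.32, and across 9513 genes tested with a known length both were −0.10. With the log2 length of the longest GENCODE M21 transcript, the Pearson correlation was 0.23 over members and 0.20 over all those genes. Members longer than the median member length of 3295 nt had a median log2 fold change of 0.25, with 28 of 33 positive, and the shorter ones 0.16, with 25 of 34 positive. For all genes tested on the same division, the medians were 0.12 for longer and −0.01 for shorter genes. These genes share the same 4 libraries and are not independent replicates, and the part of length in the members' fold changes was not tested.

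**Figure D4:**
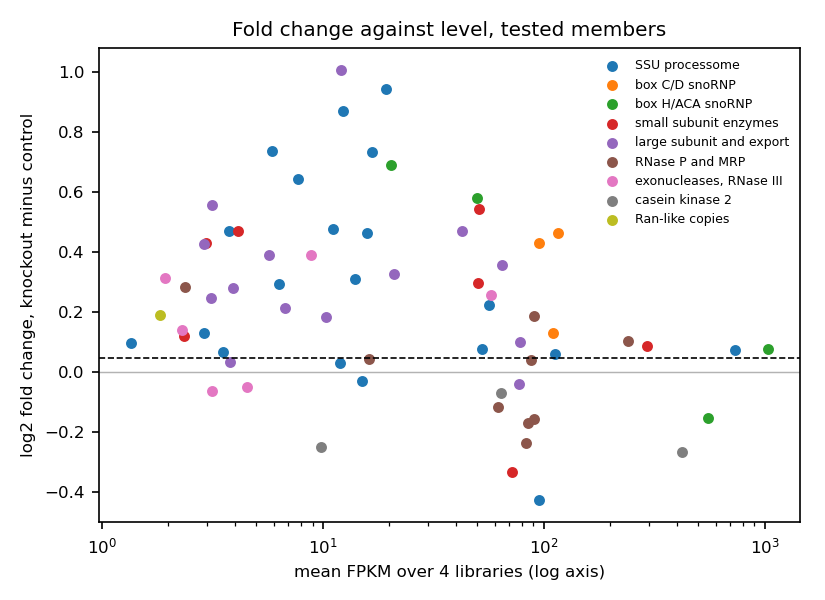
Log2 fold change of knockout minus control (vertical axis, log2(FPKM + 1) scale) against mean FPKM over the 4 libraries (horizontal, log axis) for 67 tested members, coloured by role, with a dashed line at the median of all genes tested, 0.05. The members with the largest positive values, Gnl2, Wdr43 and Utp6, lie at moderate levels. Among abundant members, Nop10, Csnk2b, Pop4 and Imp3 lie below 0, and Nhp2, Fcf1, Emg1 and Rpp30 lie a little above 0.

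Genes outside the KEGG list were taken from a list of nucleolar and assembly factors, also chosen with results known. That list also holds 6 tested genes of the MYC network, 2 of which lay below both controls. Of 117 tested, 99 had a positive log2 fold change and 18 a negative one, with a median of 0.29. Both knockout libraries lay above both controls in 69 and below them in 4, against 27.4% and 14.0% of all genes tested. At an unadjusted limma p under 0.05, 24 were higher and 0 lower, against 7.75% and 3.33% of all genes tested. The 24 became fewer when either control library was left out, as did the number over all genes tested. None passed an adjusted p of 0.05 in limma. Nolc1, a nucleolar chaperone of snoRNPs, had 23.3 and 19.6 FPKM in knockout libraries, against 9.85 and 10.9 FPKM in control libraries (0.97 ± 0.22 SE). In the authors' deposited table its FDR was 0.0429. Ncl, nucleolin, had 56.4 and 56.4 FPKM in knockout libraries, against 31.1 and 34.0 FPKM in control libraries (0.77 ± 0.19 SE). Npm1, nucleophosmin, the most abundant nucleolar scaffold gene of the list, had 3231 and 3081 FPKM in knockout libraries, against 2216 and 2801 FPKM in control libraries (0.34 ± 0.18 SE). Nop53, a large subunit factor, stood at a log2 fold change of 0.76. Both knockout pools lay above both controls in these 4 genes, and in 8 of the 9 nucleolar scaffold genes in all.

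Assembly factors outside the KEGG list were mostly positive, beside 56.0% positive among all genes tested. Of 43 large subunit genes 41 were positive, with a median of 0.30. Sdad1, needed for large subunit export, had 9.67 and 9.60 FPKM in knockout libraries, against 5.23 and 4.33 FPKM in control libraries (0.88 ± 0.24 SE). Ftsj3, a precursor methyltransferase, averaged 13.6 ± 1.21 FPKM in knockout and 7.85 ± 0.324 FPKM in control libraries, and Pes1, of the PeBoW complex, averaged 18.6 ± 0.00424 FPKM in knockout and 12.8 ± 0.989 FPKM in control libraries. These 3 genes were higher in both knockout pools. Znhit6, listed there although it is known for box C/D snoRNP assembly, averaged 35.7 ± 7.81 FPKM in knockout and 19.8 ± 2.70 FPKM in control libraries. Of 30 small subunit genes 25 were positive, with a median of 0.32, and Nop14, a processome factor, had 7.70 and 8.57 FPKM in knockout libraries, against 3.84 and 4.66 FPKM in control libraries (0.80 ± 0.25 SE). Utp3 (0.56 ± 0.22 SE), Ltv1 (0.52 ± 0.21 SE) and Tsr1 (0.38 ± 0.24 SE) also had groups that did not overlap. Of 14 RNA exosome genes 13 were positive, with a median of 0.34, and Exosc3, Exosc7 and Exosc9 had log2 fold changes of 0.49, 0.38 and 0.47, while the catalytic Exosc10 overlapped at 0.25 ± 0.34 (SE).

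RNA polymerase I and its factors, which make the precursor, were divided, with 9 of 15 positive and a median of 0.06. Both knockout libraries lay above both controls in 6 and below them in 1. Of all genes tested, 56.0% were positive, 27.4% lay above both controls and 14.0% below them. Polr1g had 5.76 and 3.43 FPKM in knockout libraries, against 2.46 and 2.16 FPKM in control libraries (0.73 ± 0.28 SE). Ubtf, the upstream binding factor, had 10.6 and 12.5 FPKM in knockout libraries, against 8.21 and 7.48 FPKM in control libraries (0.50 ± 0.24 SE), and Taf1a stood at 0.61 ± 0.25 (SE). Those 3 had groups that did not overlap, whereas Polr1a, the largest subunit, overlapped at 0.25 ± 0.29 (SE). Polr1d lay below both controls, with 278 and 289 FPKM in knockout libraries, against 339 and 391 FPKM in control libraries (−0.36 ± 0.17 SE). In the MYC network 3 of 6 tested genes were positive, with a median of 0.03. Myc itself was low, at 3.67 and 3.26 FPKM in knockout libraries against 2.87 and 2.45 FPKM in control libraries (0.29 ± 0.25 SE). Mxd3 was at 0.45, while Mlx and Mxd4 lay below both controls at −0.30 and −0.35.

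For comparison with other RNA-related lists of the table, spliceosome genes had a median log2 fold change of 0.22, with 97 of 123 positive. Genes of the KEGG ribosome, which are structural proteins of cytosolic and mitochondrial ribosomes, had a median of −0.08, with 40 of 129 positive. Positive values made up 56.0% of all genes tested, and differences between these lists were not tested.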

How the data were processed

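Poly(A) RNA of 4 libraries was measured. The authors deposited 1 table with FPKM per library, group means in FPKM, a log2 fold change that is the log2 of the knockout over the control mean, and p-value and FDR columns, per the file headers. The submitters' processing notes list, with no roles, HISAT2 2.1.0, StringTie 1.3.1, Bowtie2 2.2.8, fastp 0.18.0, DESeq2, RSEM and the build GRCm39. No tool is named for the deposited p-value in the sources used here. Genes that averaged 1 FPKM or more were tested on log2(FPKM + 1) with limma 3.58.1 in R 4.3.3, with an intensity trend, the group as the only term, 2 residual degrees of freedom, and p-values adjusted over all 9544 genes by Benjamini-Hochberg. Low genes have understated changes on this scale. SDs refer to FPKM, and SE is limma's moderated standard error of the log2 fold change. Moderation draws each gene's variance towards that of genes of like level, with 8.19 prior degrees of freedom beside the 2 residual ones. An SE can therefore be far from the spread of a gene's own pools. The fit was tested on simulated data with the same spread for every gene and no shift of whole pools. The libraries differ from that setting, so the simulation does not give the power reached here. Depth was estimated from genes with 1 transcript of over 1500 nt, taking fragments as 200 nt, and low values came within 0.1 of whole fragment numbers in 70.0% to 72.8% of cases. That estimate covers counting error only, and PCR duplicates are not known. Lengths and printed gene positions came from GENCODE M21 on GRCm38, not the authors' build, and promoters from RefSeq. The sources used here do not say whether strand was used, so overlapping and antisense genes cannot be told apart. The members and lists were chosen with earlier results of these data known. Named genes were Ywhaz, set representatives of each role, up to 4 per role with the smallest p and the 5 lowest fold changes, and outside the pathway the set representatives and up to 3 per group. Other members are named to account for the pathway. Roles of Rbm28, Rasl2-9 and 1700009N14Rik and the motif CCGGAAG were added after the data were seen. Alternatives changed the pseudocount, filter, scaling, trend, replicate block and libraries.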

Additional observations from a re-analysis of the deposited data

How the results depend on the processing

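The members' median log2 fold change of 0.19 was positive under every alternative run, from 0.14 with median-of-ratios scaling to 0.25 without knockout library 1, and stood 0.11 to 0.18 above the median of all genes, which itself ranged from −0.02 to 0.13. Called genes at an adjusted p of 0.05, 7 of all tested, became 0 with no filter or quantile normalization, 13 with TPM scaling, 4 with median-of-ratios scaling, 3 with no intensity trend and 15 to 205 with 1 library left out, against 53 by the FDR of the authors' deposited table over all its rows, 50 of them among the genes tested and 1 a member. Members higher at an unadjusted p ranged from 5 to 11 with 1 library left out, where 350 to 1005 of all 9544 genes were higher, and members lower, 1 in the report, from 0 to 2, and were 0 with TPM scaling, quantile normalization or no trend. Other nucleolar genes higher at an unadjusted p, 24 in the report, ranged from 6 to 27 with 1 library left out. Their median was 0.31 at a pseudocount of 0.1, 0.33 with TPM scaling, 0.22 with median-of-ratios scaling, 0.23 with quantile normalization and 0.27 to 0.32 with 1 library left out. The share of unadjusted calls that were higher in knockout, 69.9% of all genes, was 53.5% with median-of-ratios scaling and 55.8% with quantile normalization, and 45 and 49 members were positive, against 53. Positive values made up 49.2% of all genes tested without knockout library 2 and 49.4% without control library 2, and 49 members were positive in each. Higher calls no longer outnumbered lower ones over all genes in either of those fits. The cause of these changes was not tested. Fits without 1 library leave a lone library in a group, which is assumed to vary like the other group.

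With a replicate block on the labelled numbers, 38 of all genes passed, no member did, 7 members were higher and 0 lower at an unadjusted p, and 10 other nucleolar genes were higher, where 418 of all 9544 genes were higher and 237 lower. Samples of the same number deviated oppositely (r = −0.24), and the labels do not state whether they were paired. The crossed block, chosen after seeing the data, called 475 genes and 5 members, with 18 members and 40 other nucleolar genes higher at an unadjusted p, where 1297 of all 9544 genes were higher. Depth is estimated and pools are 2 a group, which limits every comparison.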
